A study of Mus musculus with 24 samples.

Results

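The 6 genes described here, Fos, Fosb, Fosl2, Jun, Junb and Jund, encode Fos and Jun proteins, which pair to form the transcription factor AP-1. They were taken by symbol from the deposited expression table, where they have 9 of the 34945 probe sets that carry a single gene symbol. All 6 of them were among the 13494 of 18193 genes that passed the filter on low values, a log2 value over 4 on at least 4 arrays. Fosl2, Jun and Jund have 2 probe sets each and the other members have 1, and the brightest on average across the 24 arrays leads for each gene. RNA came from the suprachiasmatic nucleus (SCN), the brain's central circadian pacemaker in the hypothalamus, of C57BL/6 mice obtained at an age of 8 weeks, and the labels name no genetic change. All mice, controls included, were housed in constant dim red light for at least 7 days. Pulsed mice were then exposed to light for 30 min at a time that shifts the rhythm earlier, control mice had a sham treatment that the labels do not describe further, and tissue was taken 3.5 h later. Laser microdissection of sections of 25 µm gave tissue of a ventral (core), a central and a dorsal part of the SCN, and thus 6 groups of 4 arrays. Arrays 1 and 2 of each group belong to amplification and labelling batch A, and arrays 3 and 4 to batch B.

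Fos proteins cannot pair with each other and bind DNA as dimers with a Jun protein, while Jun proteins can also pair among themselves. Fos, Fosb and Junb are immediate early genes, which neurons transcribe within minutes of strong stimulation and without new protein synthesis. In the SCN, light at night is a classic inducer of Fos and Junb, mainly in the retinorecipient ventral part, and Fos also has a daily rhythm in the dorsal part. Fosl2 encodes Fra-2 and Fosb the protein FosB with its shorter, long-lived splice form, both of which are known to persist after the first wave of Fos. Jund is the Jun member that is present in many resting cells. At 3.5 h after a pulse, an immediate early transcript need not be at its peak.

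The transcription of Fos depends in part on cyclic AMP response elements, whose core is TGACG and which bind CREB. The 250 bases before the start of Fos, Fosb and Fosl2 are shown because these 3 genes had the largest light differences among the members. The sequences are from RefSeq (build GRCm38.p6, 5′ to 3′ on the strand of the gene), with matches to TGACG on either strand in capitals. Fos lies at chr12:85473640-85473889 on the plus strand, Fosb at chr7:19310046-19310295 on the minus strand and Fosl2 at chr5:32136222-32136471 on the plus strand.
Fos: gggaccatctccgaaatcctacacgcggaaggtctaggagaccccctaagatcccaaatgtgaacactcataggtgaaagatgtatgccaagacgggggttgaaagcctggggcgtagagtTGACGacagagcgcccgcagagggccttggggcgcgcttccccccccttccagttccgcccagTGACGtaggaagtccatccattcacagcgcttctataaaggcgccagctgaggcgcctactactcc
Fosb: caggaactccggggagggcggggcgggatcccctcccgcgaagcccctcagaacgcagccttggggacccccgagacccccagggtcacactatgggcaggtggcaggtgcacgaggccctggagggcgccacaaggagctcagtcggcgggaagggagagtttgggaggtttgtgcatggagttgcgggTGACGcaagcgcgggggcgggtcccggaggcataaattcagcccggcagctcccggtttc
Fosl2: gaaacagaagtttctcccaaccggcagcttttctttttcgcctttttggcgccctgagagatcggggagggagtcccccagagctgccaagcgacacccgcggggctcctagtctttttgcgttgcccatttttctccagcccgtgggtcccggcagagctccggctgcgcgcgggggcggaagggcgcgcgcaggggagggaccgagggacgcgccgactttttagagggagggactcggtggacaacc
Fos held 2 matches, with first bases at -129 and -66 from the gene's start, and Fosb held 1, at -60. Fosl2 held 0 matches, as did Jun and Jund, and Junb held 1. Of 32851 promoters of this length, 17.8% held at least 1 match. The full element TGACGTCA, the AP-1 element TGANTCA, the E-box CACGTG and the CArG box were found in 0 of the 6 promoters, against 1.55%, 6.75%, 6.02% and 1.47% of all promoters. TGACGTCA contains TGACG on both strands, so these searches overlap. The matches describe the letters in this window only.

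The median log2 value of an array was 3.52 to 3.62 in batch A but 4.81 to 5.07 in batch B, so values of the batches are not on 1 scale. Each test therefore has the batch as a term, and within-batch values are given beside it. Dorsal pulsed array 4 stood apart. Its correlations with the rest of batch B had a median of 0.911, and those of the other 11 arrays had medians of 0.979 to 0.988. Its 3′ to 5′ difference of the Gapdh control probe sets, which grows when cDNA is short, was 5.41. The other 11 arrays of batch B had 0.887 to 1.07, and the 12 arrays of batch A had 2.02 to 3.28. Central pulsed array 2 had a median correlation of 0.957 in batch A, against 0.978 to 0.983. Of 4 SCN genes, Six6, Lhx1 and Rora were above 4 on 24 of 24 arrays and Syt10 on 12. Of 4 core genes, Vip and Grp, which encode core peptides, were higher on the log2 scale in the ventral than in the dorsal SCN (3.43, adjusted p = 9.97e-08, and 1.58, adjusted p = 1.56e-07), Calb1 was lower (-0.39, adjusted p = 0.0198) and Rgs16 did not pass (-0.12, limma). Grp was also lower in the ventral than in the central SCN (-0.89, adjusted p = 0.000251, limma). Of 3 shell genes Avp was lower in the ventral than in the dorsal SCN (-1.43, adjusted p = 0.00074, limma), while Prok2 and Avpr1a did not pass. Which arrays share a mouse is not given, so p-values cover only the spread between these samples, which may be technical in part. In tissue samples, fewer cells of a type and less RNA per cell cannot be told apart.

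Fosb was the member whose light difference passed the test, and it did so in the ventral SCN. Its log2 values on the 4 ventral sham arrays were 3.19, 3.45, 3.83 and 3.98, and on the 4 ventral pulsed arrays 4.00, 4.71, 7.88 and 7.45. Every ventral sham array was thus under the filter level of 4, and in both batches each pulsed array was above each sham array. Pulsed minus sham was 2.40 ± 0.441 on the log2 scale (SE, 4 against 4 arrays, adjusted p = 0.00699, limma with Benjamini-Hochberg adjustment over 13494 genes). This was 1 of 6 members, where 0.719% of all genes tested passed in the ventral SCN and 0.585% passed as higher. Batch A had a difference of 1.03 and batch B one of 3.76. The call was lost without the batch term and in each batch fitted alone (adjusted p = 1.00 in A and 0.0601 in B, limma). The adjusted p (limma) lay between 0.00221 and 0.0458 when each ventral array, or dorsal pulsed array 4, was left out in turn. No other array was left out on its own for this result. Without dorsal pulsed array 4 and central pulsed array 2 together Fosb also passed, as did 2.28% of genes. With every probe set as a test of its own, Fosb had an adjusted p of 0.00879 (limma) over 25067 probe sets, of which 0.487% passed, and without ventral pulsed array 3, ventral sham array 3 or ventral sham array 4 it no longer passed there, so that the count fell to 0 of 9 probe sets.

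In the central SCN Fosb read 2.89, 3.53, 4.65 and 4.77 on the sham arrays and 3.71, 4.89, 6.91 and 5.82 on the pulsed arrays. The groups again did not overlap within either batch. The difference was 1.37 ± 0.441 (unadjusted p = 0.0051, adjusted p = 0.308, limma), which did not pass. In the dorsal SCN the values were 2.93, 3.69, 4.68 and 5.61 on sham arrays and 3.06, 3.96, 5.72 and 4.32 on pulsed arrays. These overlapped in both batches, in batch B through 4.32, the value of dorsal pulsed array 4, which stood apart. The other pulsed value of batch B was above both sham values. The difference was 0.04 ± 0.441, with an interval (95%) of -0.88 to 0.95. It lay between -0.17 and 0.34 when each dorsal array was left out in turn. The light difference of Fosb was thus 2.36 ± 0.623 larger in the ventral than in the dorsal SCN (unadjusted p = 0.00104, adjusted p = 0.937, limma). The F test of the light by region interaction gave Fosb an unadjusted p of 0.00399 and an adjusted p of 0.99968, and by this test 0.00741% of all genes passed after adjustment while 0.341% had an unadjusted p under 0.01.

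**Figure D1:**
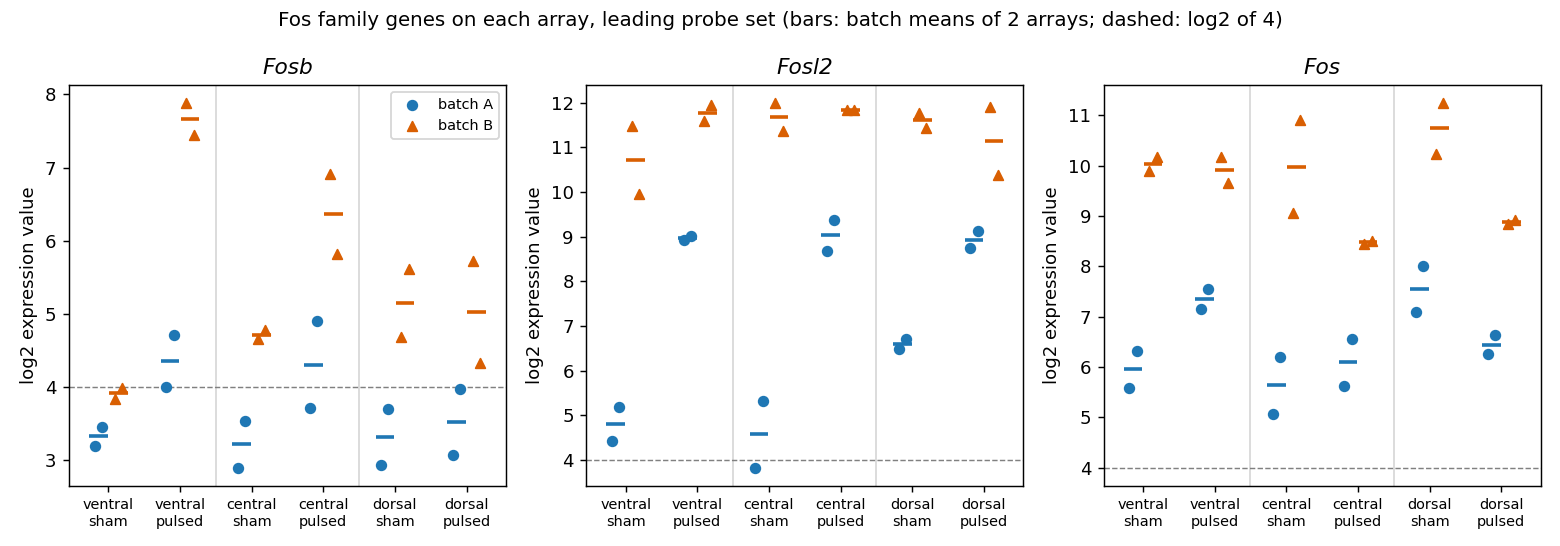
Log2 expression values of Fosb, Fosl2 and Fos (leading probe sets, y axis) on each of the 24 arrays by region and treatment (x axis), with batch A as circles, batch B as triangles, and a bar at the mean of the 2 arrays of a batch in each group. Fosb in the ventral SCN is higher on all pulsed arrays of a batch, Fosl2 of batch A is higher on all pulsed arrays in each region, and Fos in the dorsal SCN is lower on the pulsed arrays of both batches. The dashed line is the filter level of 4.

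Fosl2 had the largest light differences of the family, and they lay in batch A. In that batch the leading probe set read 4.43 and 5.18 on the ventral sham arrays and 8.93 and 9.02 on the ventral pulsed arrays. The central SCN had 3.83 and 5.32 on sham and 8.68 and 9.38 on pulsed arrays, and the dorsal SCN 6.48 and 6.72 on sham and 8.73 and 9.13 on pulsed arrays. Over the 3 regions of batch A the pulsed values ran from 8.68 to 9.38 and the sham values from 3.83 to 6.72. Regions may share mice, so these arrays are not independent replicates. The share of all genes separated in this way was not counted. In batch B the sham arrays were already high. The ventral SCN had 11.47 and 9.94 on sham and 11.60 and 11.95 on pulsed arrays. In the central SCN the sham values were 11.99 and 11.35 and the pulsed values 11.83 and 11.83. The dorsal SCN had 11.77 and 11.43 on sham and 11.90 and 10.38 on pulsed arrays, so the groups overlapped in the central and dorsal SCN of batch B. The dorsal overlap came from 10.38, the value of dorsal pulsed array 4, which stood apart. The other dorsal pulsed value was above both sham values.

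With 1 light difference for both batches, Fosl2 was 2.62 ± 0.752 higher in the ventral SCN (unadjusted p = 0.0022, adjusted p = 0.164), 2.31 ± 0.752 in the central SCN (adjusted p = 0.32) and 0.93 ± 0.752 in the dorsal SCN (adjusted p = 0.61, all limma), and it passed in none of them. Without dorsal pulsed array 4 and central pulsed array 2, the arrays that stood apart, the ventral difference was again 2.62 and passed (adjusted p = 0.0414, limma), as did 2.28% of genes. Averaged over the regions the difference was 1.95 ± 0.568 (adjusted p = 0.267, limma, 4 pulsed against 4 sham composites). A fit with a light difference for each batch, added after the values had been seen, gave 4.17 ± 0.535 in the ventral SCN of batch A, 18.0-fold (adjusted p = 0.00153, limma), where 0.133% of genes passed, and 1.06 ± 0.535 in batch B (adjusted p = 0.99998). For the central SCN it gave 4.45 ± 0.535 in batch A, 21.9-fold (adjusted p = 0.00157, limma), where 0.0741% of genes passed, and 0.16 ± 0.535 in batch B. The dorsal SCN had 2.33 ± 0.535 in batch A (adjusted p = 0.405) and -0.46 ± 0.535 in batch B, which includes dorsal pulsed array 4. Batch A minus batch B was 3.11 ± 0.756 in the ventral, 4.30 ± 0.756 in the central and 2.79 in the dorsal SCN, with unadjusted p of 0.000756, 2.84e-05 and 0.0018. None of these differences between the batches passed after adjustment (adjusted p = 1.00, 0.383 and 0.707, limma), and 0% of all genes did, while 0.778%, 9.52% and 4.98% had an unadjusted p under 0.05. In the same fit the mean over both batches passed for Fosl2 in the ventral (adjusted p = 0.00193) and central SCN (adjusted p = 0.00894, limma), where 0.563% and 0.319% of genes passed. For Fosb that fit gave the 3.76 of ventral batch B an adjusted p of 0.00302 (limma), where 0.2% of genes passed. Batch A minus batch B of Fosb in the ventral SCN was -2.72 ± 0.728 (unadjusted p = 0.00166, limma). It did not pass after adjustment either, and 0.778% of genes had an unadjusted p under 0.05 there.

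The second probe set of Fosl2 read between 3.25 and 5.64 over the 24 arrays. Its light differences were 0.03 ± 0.294 in the ventral, 0.38 ± 0.294 in the central and 0.03 ± 0.294 in the dorsal SCN, none of which passed (adjusted p = 0.99995, 0.972 and 0.971, limma over 25067 probe sets). In the ventral SCN of batch A, where the leading probe set differed by 4.17, this one read 3.53 and 3.68 on sham and 3.50 and 4.04 on pulsed arrays.

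**Figure D2:**
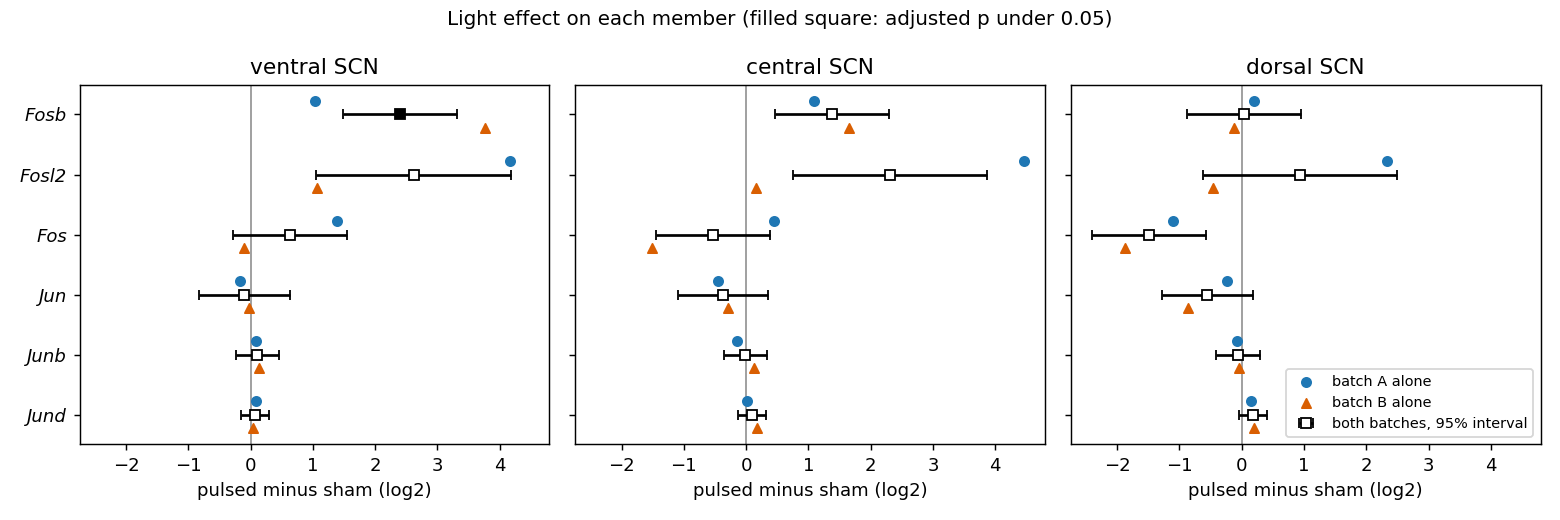
Pulsed minus sham on the log2 scale (x axis) for each member (y axis) in the ventral, central and dorsal SCN, as squares with 95% intervals from the fit of both batches, filled where the adjusted p is under 0.05, and with the difference within batch A (circles) and batch B (triangles). Fosb in the ventral SCN, at 2.40, is the filled square, and the batches lie farthest apart for Fosl2.

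Fosl2 and Fos also differed most between the batches without light. Over the 3 regions the sham mean of Fosl2 was 5.33 in batch A and 11.33 in batch B, a difference of 6.00, which was the largest among the 13494 genes. Fos had sham means of 6.38 and 10.25, a difference of 3.87 that 86 genes reached, Fos included. The median over all genes was 1.67. Fosb (1.31), Jun (2.03), Junb (1.17) and Jund (1.58) lay near it. On the pulsed arrays Fosl2 differed by 2.60 and Fos by 2.46 between the batches, where the median gene differed by 1.79. The labels name the batch as that of amplification and labelling and give no other difference between its mice, and the cause of these differences was not tested.

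**Figure D3:**
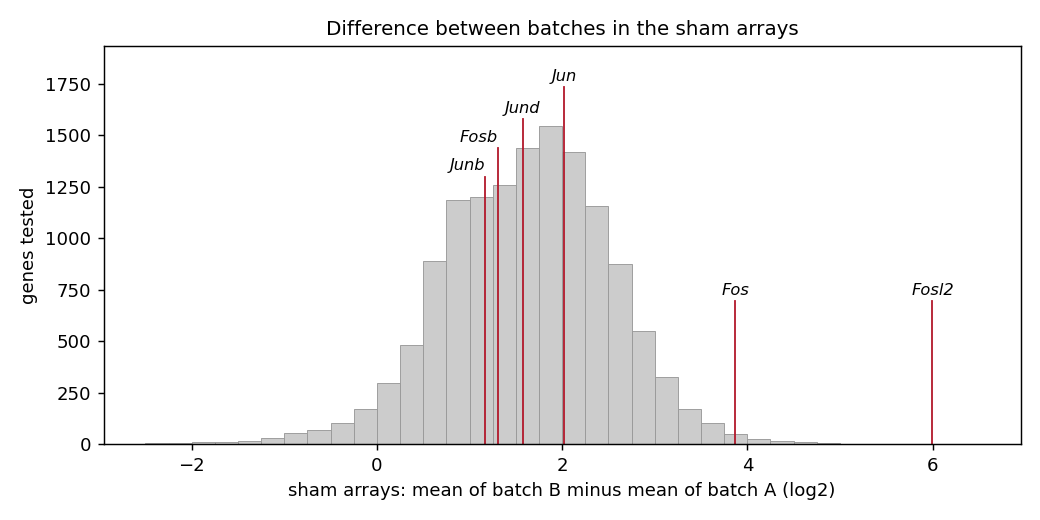
Number of genes tested (y axis, grey bars) by the difference between the mean of the 6 sham arrays of batch B and that of batch A (x axis, log2), with the members marked by vertical lines whose heights carry no value. Fosb, Jun, Junb and Jund lie between 1.17 and 2.03, near the median of 1.67, while Fos lies at 3.87 and Fosl2 at 6.00.

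Fos, the prototype of the family, did not pass the test in any region, and its differences had opposite signs in the ventral and the dorsal SCN. In the ventral SCN it read 5.58, 6.32, 9.89 and 10.17 on sham arrays and 7.14, 7.54, 10.18 and 9.66 on pulsed arrays. The pulsed arrays were higher in batch A and overlapped the sham arrays in batch B, and the difference was 0.64 ± 0.441 (interval -0.27 to 1.55), with 1.39 in batch A and -0.11 in batch B. The central SCN had 5.07, 6.20, 9.05 and 10.91 on sham arrays and 5.62, 6.55, 8.45 and 8.50 on pulsed arrays, a difference of -0.53 ± 0.441, with 0.45 in batch A and -1.50 in batch B.

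In the dorsal SCN Fos read 7.10, 7.99, 10.24 and 11.24 on sham arrays and 6.25, 6.63, 8.83 and 8.91 on pulsed arrays. Each pulsed array was below each sham array of its batch. This held for 2.63% of all genes in the dorsal SCN. The difference was -1.49 ± 0.441 (unadjusted p = 0.00277, adjusted p = 0.264, limma), with -1.11 in batch A and -1.87 in batch B. With array weights, which give less weight to arrays that vary more, it was -1.64 with an adjusted p of 0.0233 (limma), and 2.62% of genes passed. The light difference of Fos was 2.13 ± 0.623 larger in the ventral than in the dorsal SCN (unadjusted p = 0.00253, adjusted p = 0.937, limma), where 0.00741% of genes passed and 0.645% had an unadjusted p under 0.01. Within the batches it was 2.50 in A and 1.75 in B.

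Of the members, Fosb and Fosl2 in the ventral SCN and Fosb in the central SCN had pulsed arrays above all sham arrays in both batches, as had 5.96% and 2.99% of all genes in these regions. Jund did so in the dorsal SCN, as did 3.31% of genes. Over the 6 members the median light difference was 0.37 in the ventral, 0.04 in the central and -0.01 in the dorsal SCN, against medians of -0.03, -0.08 and -0.03 over all genes tested. In the central SCN 0 of 6 members passed the test, where 0.385% of genes did, and in the dorsal SCN 0 of 6, where 0.178% did. Averaged over the regions 0 of 6 passed, where 0.408% did. The averaged difference of Fosb was 1.27 ± 0.300 (unadjusted p = 0.0015, adjusted p = 0.146, limma), and it passed without the composite of pulsed arrays 1 (1.55, adjusted p = 0.0429, limma), where 0.296% of genes did.

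The Jun genes encode the partners of the Fos proteins, and none of the 3 passed the test with light in any region. Jun, the prototype Jun gene, read 7.94, 8.71, 10.40 and 10.43 on ventral sham and 8.26, 8.05, 10.31 and 10.48 on ventral pulsed arrays. The central SCN had 7.59, 8.20, 10.14 and 10.35 on sham and 7.61, 7.29, 9.92 and 9.98 on pulsed arrays. In the dorsal SCN it had 8.38, 9.06, 10.15 and 10.55 on sham and 8.40, 8.57, 10.58 and 8.39 on pulsed arrays, the last of which is the array that stood apart. The light differences were -0.10 ± 0.350 in the ventral, -0.37 ± 0.350 in the central and -0.55 ± 0.350 in the dorsal SCN, and none passed (adjusted p = 1.00, 0.903 and 0.539, limma). The dorsal difference of Jun was 0.0074 without dorsal pulsed array 4. The second probe set of Jun had differences of -0.28, -0.33 and -0.27 ± 0.243 in the ventral, central and dorsal SCN.

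Junb, an immediate early gene, was dim. It read 2.65 to 3.15 over the 12 arrays of batch A, 0 of them over 4, and 3.75 to 4.60 over those of batch B, 8 of them over 4, so it passed the filter through batch B alone. Its light differences were 0.11 ± 0.169 in the ventral, -0.01 ± 0.169 in the central and -0.06 ± 0.169 in the dorsal SCN. The intervals reached from -0.24 to 0.46, from -0.36 to 0.34 and from -0.41 to 0.29. None passed, and a p that misses the threshold does not show that Junb did not change.

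Jund had the smallest spread of the members. The leading probe set read 10.77 to 11.10 on all arrays of batch A and 12.45 to 12.71 on those of batch B. Its light differences were 0.07 ± 0.107 in the ventral, 0.09 ± 0.107 in the central and 0.18 ± 0.107 in the dorsal SCN (adjusted p = 1.00, 0.94 and 0.533, limma). In the dorsal SCN the sham arrays had 10.94, 10.77, 12.49 and 12.47 and the pulsed arrays 11.05, 10.98, 12.64 and 12.71, without overlap in either batch. The intervals for the 3 regions lay within -0.16 to 0.40. The second probe set of Jund had differences of -0.03, 0.09 and -0.11 ± 0.213.

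**Figure D4:**
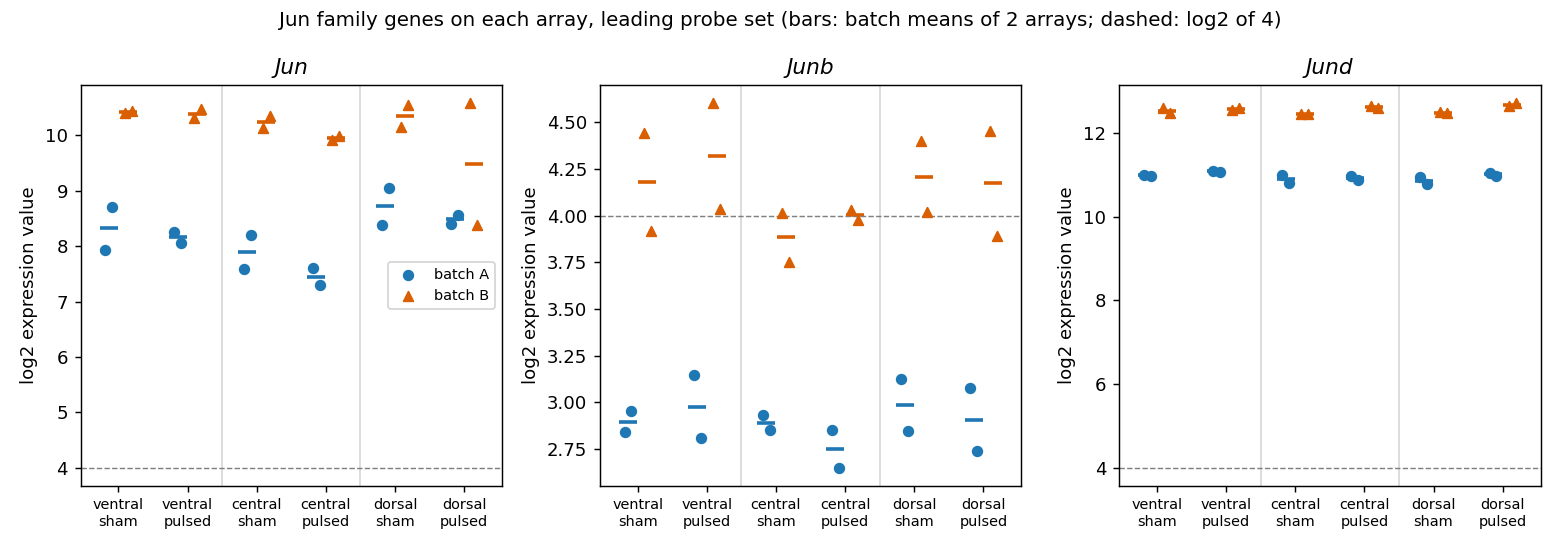
Log2 expression values of Jun, Junb and Jund (leading probe sets, y axis) on each of the 24 arrays by region and treatment (x axis), with batch A as circles, batch B as triangles and bars at the mean of 2 arrays. Pulsed and sham arrays of a batch lie closest together for Jund. Jun on dorsal pulsed array 4, at 8.39, lies far below the other arrays of batch B. In batch A Jun reads 7.29 on central pulsed array 2 and 8.20 on central sham array 2. The Junb values of batch A are all under the dashed filter level of 4.

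The levels by region showed no member that passed the test over both treatments (8 against 8 arrays), where 4.61% of all genes passed between the ventral and dorsal, 5.2% between the ventral and central and 7.11% between the central and dorsal SCN. Fos came closest. On the sham arrays its batch means were highest in the dorsal SCN, 7.55 in batch A and 10.74 in batch B, followed by the ventral SCN with 5.95 and 10.03 and the central SCN with 5.64 and 9.98. The ventral and central sham levels differed by 0.18 ± 0.441 and overlapped. Dorsal sham exceeded the central by 1.34 (central minus dorsal -1.34 ± 0.441, unadjusted p = 0.00622, adjusted p = 0.164, limma) and the ventral by 1.15 (ventral minus dorsal -1.15, adjusted p = 0.351). On the pulsed arrays the ventral SCN was higher than the dorsal by 0.97 ± 0.441 (adjusted p = 0.312, limma), with batch means of 7.34 and 9.92 against 6.44 and 8.87. Over both treatments central minus dorsal was -0.86 ± 0.312 (adjusted p = 0.109), and ventral minus central was 0.77 ± 0.312 (adjusted p = 0.232, limma). Without central sham array 4, which read 10.91, these were -1.12 (adjusted p = 0.0112) and 1.03 (adjusted p = 0.024, limma), and both passed, as did 5.5% and 4.08% of genes. Without the arrays that stood apart, central minus dorsal was -1.08 for Fos (adjusted p = 0.0397) and -0.59 for Jun (adjusted p = 0.0123, limma), and 8.94% of genes passed.

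Fosb had its lowest sham level in the ventral SCN of batch B, 3.91, against 4.71 in the central and 5.14 in the dorsal SCN, while in batch A the sham means were 3.32, 3.21 and 3.31. After the pulse the order of the means in batch B was ventral 7.67, central 6.36 and dorsal 5.02. On the pulsed arrays alone the ventral minus dorsal difference of Fosb was 1.75 ± 0.441 and passed (adjusted p = 0.0386, limma, 4 against 4 arrays, 2.04% of genes passed), and on the sham arrays alone it was -0.61 ± 0.441 (adjusted p = 0.988). Central minus dorsal on the pulsed arrays was 1.07 ± 0.441 (adjusted p = 0.216) and ventral minus central 0.68 ± 0.441 (adjusted p = 0.821, limma), so neighbours in this order did not pass. Fosl2 showed ventral minus dorsal differences of -1.35 ± 0.752 on the sham arrays and 0.34 ± 0.752 on the pulsed arrays, and neither passed.

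Jun differed between the central and the dorsal SCN by -0.38 over both treatments, which did not pass, but without dorsal pulsed array 4 the difference was -0.66 with an adjusted p of 0.00529 (limma, 8.74% of genes passed). Junb and Jund differed between regions by no more than 0.21 over both treatments. Markers of other cell types differed between the dissected regions. Of oligodendrocyte markers, the genes of myelinating glia, 5 of 6 tested were higher in the ventral than in the dorsal SCN, 6 of 6 higher in the ventral than in the central SCN, and 5 of 6 lower in the central than in the dorsal SCN. Of 6 astrocyte markers 3 were higher in the ventral than in the dorsal and 4 than in the central SCN. Of 6 endothelial markers 3 were higher in the ventral than in the central SCN and 3 lower in the central than in the dorsal SCN, and of 6 microglial markers 1 and 2. The neuronal gene Syt1, for a synaptic vesicle protein, was the 1 of 4 neuronal markers that differed, and was higher in the dorsal SCN (ventral minus dorsal -2.04, adjusted p = 2.26e-10, central minus dorsal -1.86, adjusted p = 7.09e-10, limma). The level of 6 oligodendrocyte markers of 7 listed, averaged after subtracting batch means, was 0.93 to 1.54 on ventral sham arrays, -1.50 to -0.97 on central sham and -0.25 to 0.02 on dorsal sham arrays, and the part of these cell types in the region levels of the members was not tested. With light, 0 of the 6 measured oligodendrocyte markers, 0 of 6 microglial and 0 of 6 endothelial markers passed the test in any region. Of all genes 0.719%, 0.385% and 0.178% passed in the ventral, central and dorsal SCN. Gfap, an astrocyte filament gene, rose in the ventral (1.28, adjusted p = 0.018) and dorsal SCN (1.33, adjusted p = 0.0319, limma) and was the 1 of 6 astrocyte markers that did. Of 5 ependymal markers Foxj1 was above 4 on 0 arrays, Tmem212 and Dnah12 on 1 each, Ccdc153 on 16 and Rarres2 on 24. Ccdc153 was lower in the ventral (-1.59, adjusted p = 0.0018) and central (-1.97, adjusted p = 0.000156, limma) than in the dorsal SCN. With light 0 of the 2 ependymal markers tested passed. The red cell genes Hba-a1 and Alas2 were under 4 on all arrays.

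The genes whose values followed the members most closely over the 24 arrays were found by Pearson's r after subtracting batch means, as a description over arrays that share batches and groups. Nearest to Fosb were Lif, a cytokine gene (r = 0.908), Ddit4l, an inhibitor of mTOR signalling (0.866), and Fzd7, a Wnt receptor gene (0.82). Of these Ddit4l also rose in the ventral SCN (2.43, adjusted p = 0.00133, limma). Nearest to Fosl2 were Dusp1 (0.932) and Dusp4 (0.882), both MAP kinase phosphatase genes, and Prok2 (0.875), which encodes an SCN output peptide. In batches A and B, r was 0.953 and 0.672 for Dusp1, 0.935 and 0.631 for Dusp4, and 0.92 and 0.809 for Prok2. Dusp1 passed with light in no region (ventral 0.66, adjusted p = 0.667, central 1.00, adjusted p = 0.234, dorsal 0.64, adjusted p = 0.487, limma). Dusp4 (1.97, adjusted p = 0.0111) and Prok2 (2.61, adjusted p = 0.0235) passed in the ventral SCN (limma), and without ventral pulsed array 2 neither did (adjusted p = 0.0695 and 0.14). There Dusp4 differed by 2.82 in batch A but by 1.13 in batch B, and Prok2 by 3.24 and 1.99.

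Fos had no neighbour above r = 0.757, the value of Inpp4b, a phosphoinositide phosphatase gene, which was followed by Cpne3 (0.714) and Tm4sf1 (0.705). Nearest to Jun were Sos1, a Ras activator gene (0.908), Far2 (0.9) and Tub (0.898). Junb had Syt12 (0.841), 4930506C21Rik (0.832) and Clic1 (0.816), and Jund had Atp11a (0.857), Prkd1 (0.832) and Polr1e (0.822). Among the members the highest r was 0.50 between Fos and Jun, followed by 0.42 between Fosb and Fosl2, while Fos and Fosb had 0.04.

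The wider pathway was read from lists. Other AP-1 and related bZIP genes had 7 of 13 members tested, since 5 were below the filter, among them Fosl1, Atf3 and Batf, and 1 was not analysed here. In each region 0 of the 7 passed the test with light. The shares of all genes that passed were 0.719% in the ventral, 0.385% in the central and 0.178% in the dorsal SCN. The smallest p in the averaged light effect belonged to the small Maf genes Mafk (0.44 ± 0.159, adjusted p = 0.412) and Maff (0.43 ± 0.165, adjusted p = 0.441), whose proteins lack an activation domain, and to Atf7 (0.31 ± 0.158, adjusted p = 0.583, limma). The list's median light difference was 0.14 in the ventral, 0.15 in the central and 0.09 in the dorsal SCN. Maf was higher in the ventral than in the dorsal (0.68, adjusted p = 0.013) and central SCN (0.62, adjusted p = 0.0215, limma).

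Of 24 kinases and transcription factors that induce or phosphorylate AP-1, 16 were tested and 8 had no probe set of a single symbol. With light 0 of 16 passed the test in any region. Of all genes 0.719% passed in the ventral, 0.385% in the central and 0.178% in the dorsal SCN. Elk1, a factor that activates Fos transcription together with Srf, had an averaged difference of -0.59 ± 0.240 (adjusted p = 0.461), Srf of -0.31 ± 0.146 (adjusted p = 0.54) and Mapk10, a Jun kinase, of 0.34 ± 0.154 (adjusted p = 0.53, limma). Without dorsal pulsed array 4 and central pulsed array 2, 1 of 16 passed in the ventral SCN, Elk1, as lower, where 2.28% of all genes passed. Mapk10 was lower in the ventral than in the dorsal SCN (-0.57, adjusted p = 0.0192, limma). The list medians with light were -0.01, -0.15 and -0.09 in the ventral, central and dorsal SCN.

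Of 12 genes whose products bind, repress or degrade AP-1 proteins or their transcripts, 11 were tested and 0 passed the test with light. Of all genes 0.719%, 0.385% and 0.178% passed in the ventral, central and dorsal SCN. The list medians were 0.01, -0.07 and -0.06 in these 3 regions. Zfp36l1 (0.32 ± 0.125, adjusted p = 0.447) and Zfp36 (0.33 ± 0.142, adjusted p = 0.504) encode proteins that destabilize AU-rich transcripts, and Det1 (-0.37 ± 0.161, adjusted p = 0.514, limma), part of a ubiquitin ligase for Jun, had the next smallest p of the averaged effect. Det1 was higher in the central SCN than in the ventral (ventral minus central -1.32, adjusted p = 5.25e-05) and the dorsal SCN (0.96, adjusted p = 0.00153), and Zfp36l1 was higher in the ventral than in the central SCN (0.63, adjusted p = 0.00113, limma).

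Among textbook AP-1 target genes 11 of 18 were tested, 6 being below the filter. In the ventral SCN 2 of 11 rose, where 0.585% of all genes did. The list was chosen with earlier results of these data known, so this count is no test of AP-1 targets as a set. Ezr, which encodes the membrane linker ezrin, rose by 1.50 ± 0.224 in the ventral (adjusted p = 0.000919) and 1.20 ± 0.224 in the central SCN (adjusted p = 0.0113, limma), and had a difference of 0.90 in the dorsal SCN (adjusted p = 0.142). The ventral rise was 1.17 in batch A and 1.82 in batch B, and the central call was lost without central pulsed array 3 (adjusted p = 0.0662). Penk, the enkephalin precursor gene, rose by 1.04 ± 0.212 in the ventral SCN (adjusted p = 0.0173, limma), from a region where it was 2.09 lower than in the dorsal SCN (ventral minus dorsal -2.09), and lost the call without ventral sham array 2 (adjusted p = 0.0907). The list's median was 0.19 in the ventral, 0.13 in the central and -0.02 in the dorsal SCN. Without the dorsal pulsed array that stood apart, Mt2 also passed in the ventral and Ezr in the dorsal SCN, as did 1.53% and 0.304% of all genes.

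**Figure D5:**
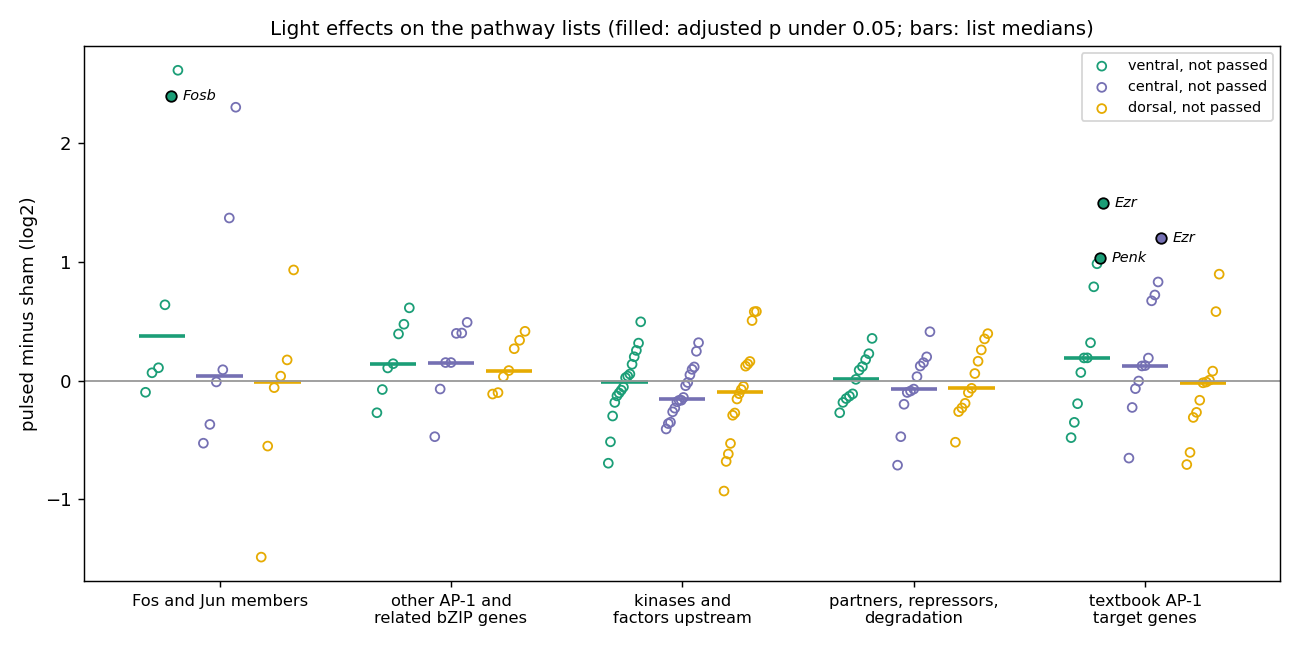
Pulsed minus sham on the log2 scale (y axis) for each tested gene of the 5 lists (x axis), by region in colour, filled and named where the adjusted p is under 0.05, with bars at the list medians. Fosb in the ventral SCN, Ezr in the ventral and central SCN and Penk in the ventral SCN are the filled points, and the medians of the lists lie between -0.15 and 0.37.

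For scale, Nptx1, a synaptic pentraxin gene that responds to activity, rose by 3.33 ± 0.235 in the ventral, 3.06 ± 0.235 in the central and 2.20 ± 0.235 in the dorsal SCN (adjusted p = 2.73e-08, 1.37e-07 and 6.42e-05). Per2, a clock gene induced by light, rose by 2.19 ± 0.269 in the ventral and 1.48 ± 0.269 in the central SCN (adjusted p = 8.31e-05 and 0.00949), and its dorsal difference was 1.27 (adjusted p = 0.0539, limma). In the ventral SCN Nptx1 differed by 3.40 in batch A, and by 3.25 in batch B, where Fosl2 differed by 4.17 and 1.06.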

How the data were processed

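The deposited table holds the authors' log2 expression values of 45101 probe sets on 24 Affymetrix mouse arrays. Tools listed in the submitters' processing notes are MAS5, GCRMA 2.32.0 and R 3.0.2, with no role for each. RNA was amplified and labelled in batches, per the labels. Gene symbols came from the platform annotation (34945 with 1 symbol, 932 with several, 9160 with none), and the one with the highest mean stood for a gene. The tests used limma (version 3.58.1 under R 4.3.3; two-sided moderated statistics, Benjamini-Hochberg adjustment over 13494 genes), fitted on 6 group means plus batch (17 residual and 4.7 prior degrees of freedom), and a gene whose adjusted p is below 0.05 is said to pass, rise or fall. The averaged light effect used 8 composites, each the mean of 3 regions for 1 treatment and replicate number (5 residual and 5.7 prior degrees of freedom). The scripts were tested on simulated data. The number of arrays limits the precision.

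Named are the 6 members, the genes of each list that passed with light or the 3 with the smallest averaged p, the 3 genes nearest to each member, and Nptx1 and Per2. Members and lists were chosen with earlier results of these data known, and Jdp2 is in 2 lists. Alternatives changed the batch term, filter, probe set rule, scaling, weights and arrays.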

Additional observations from a re-analysis of the deposited data

Results flagged for a closer look

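The leading probe set of Jun was far lower on dorsal pulsed array 4 than on the other 3 arrays of its group. After subtracting batch means it read -1.75 there, against 0.23 to 0.44 on the others, and its deposited value was 8.39. The gap was 0.903 of the group's range, above Dixon's critical value for 4 samples. This was 1 of 36 combinations of member and group examined, and chance marks about 1 in 20. The array is the one with the 3′ to 5′ Gapdh difference of 5.41, and the part of that in the low Jun value was not tested. The second probe set of Jun was not low there. It read 6.91 on dorsal pulsed array 4 and 6.26 on dorsal pulsed array 3, the other of batch B.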

How the results depend on the processing

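Alternatives changed the ventral count of members that passed, 1 in the report, to 0 without the batch term, in batch B alone and with the filter at 6, which drops Fosb and Junb, and to 2 with array weights, without dorsal pulsed array 4 and central pulsed array 2, and in the fit with a light effect for each batch (mean of batches). The central count of 0 became 1 in batch A alone and in the fits for batch A and for the mean of batches, and the dorsal count of 0 became 1 with array weights. The averaged count of 0 became 1 with the replicate block, in batch A (alone or in the fit for each batch) and for the mean of batches. It became 2 as the mean of 3 effects, where 4.07% of all genes passed. Regional counts of 0 became 1 with pulsed arrays only (ventral minus dorsal), with array weights (ventral minus central and central minus dorsal) and without dorsal pulsed array 4 (central minus dorsal), and 2 without that array and central pulsed array 2 (central minus dorsal). The count of probe sets, 1, became 0 without the batch term, in batch B alone and with the filter at 6, and 2 with array weights. Leaving out 1 array gave counts of 0 to 1 for central minus dorsal, ventral minus central and the probe sets. Leaving out 1 composite gave counts of 0 to 1 for the averaged effect. With array weights more genes passed throughout, 4.27% in the ventral SCN, 10.3% for ventral minus central and 13.1% for central minus dorsal, and without dorsal pulsed array 4 and central pulsed array 2 it was 2.28% in the ventral SCN. The interaction stayed at 0 members in all that were run.

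Replicate numbers are shared by the groups. Deviations of arrays with the same number correlated at 0.209 to 0.623 in batch A and 0.096 to 0.46 in batch B, so 29 of 30 pairs of groups were over 0.1 and 1 was under it. The rule for a pairing, that every pair is over 0.1, was thus missed by 1 pair, and whether arrays with the same number share an origin was not settled. With the replicate block Fosb kept its ventral call and passed in the averaged effect (1.27, adjusted p = 0.0464, limma), and the share of all genes that passed rose to 0.726% in the central SCN, 0.296% in the dorsal SCN and 0.837% in the averaged effect.

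These values changed sign, none of them past the threshold in the report. In batch A alone: Fos central 0.45 and averaged 0.25, Junb averaged -0.047, Jun ventral minus dorsal -0.36, Junb ventral minus dorsal -0.0098, Fosl2 ventral minus central 0.085. In batch B alone: Fos ventral -0.11, Fosb dorsal -0.12, Fosl2 dorsal -0.46, Junb central 0.12, ventral minus dorsal Fos 0.17 and Jund -0.024, central minus dorsal Fosl2 0.38 and Jun 0.18. The light effects of each batch are the same in the added fit. With array weights: Junb central 0.0070 and dorsal 0.13, Jun dorsal 0.022, ventral minus dorsal Fos 0.079, Jun -0.17 and Junb -0.13. With sham arrays only: ventral minus dorsal Fosb -0.61, Jun -0.16 and Junb -0.060, ventral minus central Fosb -0.35, central minus dorsal Fosb -0.27 and Jund 0.0076. With pulsed arrays only: ventral minus dorsal Fos 0.97, Fosl2 0.34 and Jund -0.018, central minus dorsal Fosl2 0.39. With the mean of probe sets, ventral minus dorsal was -0.056 for Jun and -0.025 for Jund. Junb averaged was -0.014 with median centring and -0.011 with quantile normalization. For the averaged effect, an array was left out together with its whole composite of 3 regions. Leaving out 1 array, or both arrays that stood apart, gave ranges across 0 for Fos central (-0.93 to 0.0076), Fosb dorsal (-0.17 to 0.35), Jun ventral (-0.26 to 0.018) and dorsal (-0.77 to 0.0074), Junb ventral (-0.011 to 0.21), central (-0.097 to 0.045), dorsal (-0.16 to 0.034) and averaged (-0.078 to 0.19), ventral minus dorsal Fos (-0.19 to 0.057), Jun (-0.22 to 0.17) and Junb (-0.036 to 0.077), ventral minus central Fosb (-0.0042 to 0.36) and Fosl2 (-0.59 to 0.091), and central minus dorsal Fosl2 (-0.84 to 0.085).

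Members gained these calls beside those in the report and the replicate block (adjusted p, limma). With array weights they were Fosl2 ventral (2.43, 0.0124), Fos ventral minus central (0.89, 0.031) and Jun central minus dorsal (-0.54, 0.00848). In batch A alone Fosl2 passed in the ventral (0.00576) and central SCN (0.00516) and averaged (3.65, 0.0233), where 0.0741%, 0.0593% and 0.0222% of all genes passed. The averaged effect as the mean of 3 effects passed for Fosb (0.00454) and Fosl2 (0.0102), where 4.07% of all genes passed. That fit counts regions as separate arrays, although they may share mice. In the fit with a light effect for each batch Fosl2 averaged passed for batch A (0.00212) and the mean of batches (0.00526). The shares of all genes were 0.0741% and 0.408%. The cause of these changes was not tested. Fosb in batch A and Junb read near or under 4, and what this signal limits was not tested.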
